A study of Mus musculus with 2 samples.

Results

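The myosin light chains and their kinases were examined as a family of 7 genes in muscle of RXRγ mice. They comprise the light chain genes Myl1, Myl2, Myl3, Myl4 and Mylpf and the kinase genes Mylk2 and Mylk4. A probe set, the unit of several oligonucleotides with which the array reads a transcript, was taken when the platform annotation named it for 1 of these genes alone. This gave 10 probe sets of 45101 on the array, and 7 genes of 18194 named in this way. No signal entered this rule, but the family itself was chosen by its log2 ratios on the same 2 arrays, in which some of its genes were among the lowest, so its differences between the genotypes are given as a description, with no test.

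The RXRγ mice are C57BL6 mice of line 4-3, which overexpress RXRγ, a nuclear receptor that works as a partner of other nuclear receptors, in skeletal muscle under the human α-actin promoter. They were compared with non-transgenic C57BL6 control mice. All were females at 4 months of age with free access to food, and the sources used here do not say which muscle was dissected. RNA was pooled within each genotype, from 5 animals per pool by the design text and from 3 by the extract protocol, and each pool was hybridized to 1 Affymetrix array. There are thus no replicates and no errors, and each difference is only as precise as 1 array per genotype allows. Genotype and pool cannot be told apart, and neither can an effect of RXRγ and one of the site where this line carries its transgene.

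Myosin is a motor of heavy chains, each of which carries an essential and a regulatory light chain on its lever arm. In mice, slow fibres use Myl3 as the essential and Myl2 as the regulatory chain, and the heart ventricle uses the same genes. Fast fibres use Myl1 and Mylpf in these places, and Myl4 is the essential chain of embryonic muscle and of the atrium. The kinase Mylk2, switched on by calcium and calmodulin, phosphorylates the regulatory chains and thereby strengthens contraction after repeated stimulation, and a phosphatase removes the phosphate.

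The deposited values are signals in array units, scaled by the authors to the same mean of 100.0 on both arrays once 2% of probe sets at either end are left out. Rxrg, the transgene's own gene, was 27.4-fold higher, reading 9172.1 in RXRγ mice and 334.5 in control mice. The tissue was checked with 8 genes of skeletal muscle fibres, all of which were measured, among them Acta1, the skeletal α-actin, at 10439.9 in RXRγ mice and 10998.7 in control mice. A probe set counted as measured when its brighter array was above 250. Where its dimmer signal was under 150 the fold is a bound, with that signal set to 150, and the ratio without this floor is given only to compare probe sets or settings. Gene values are log2 ratios, with RXRγ mice over control mice, averaged across the measured probe sets of a gene, and values of at least 0.4 in either direction were called higher or lower. By this rule 2 of the 8 skeletal muscle genes were lower, Ckm (log2 ratio -0.75) and Ttn (-0.63), and none was higher. Of 3780 measured genes, 16.8% were higher and 20.1% lower in RXRγ mice, with a median log2 ratio of -0.04. Of 5538 measured probe sets, 17.2% were higher and 20.9% lower.

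Among the 7 genes, 4 were lower in RXRγ mice, 2 stayed within the threshold and 1, Myl4, was not measured. None was higher. The lower genes were the slow light chains Myl3 and Myl2 and both kinases, and those within the threshold were the fast light chains Myl1 and Mylpf. Of the 8 probe sets measured, 6 were lower. Since this contrast was known when the family was chosen, nothing is read from these counts against the shares of all genes.

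**Figure D1:**
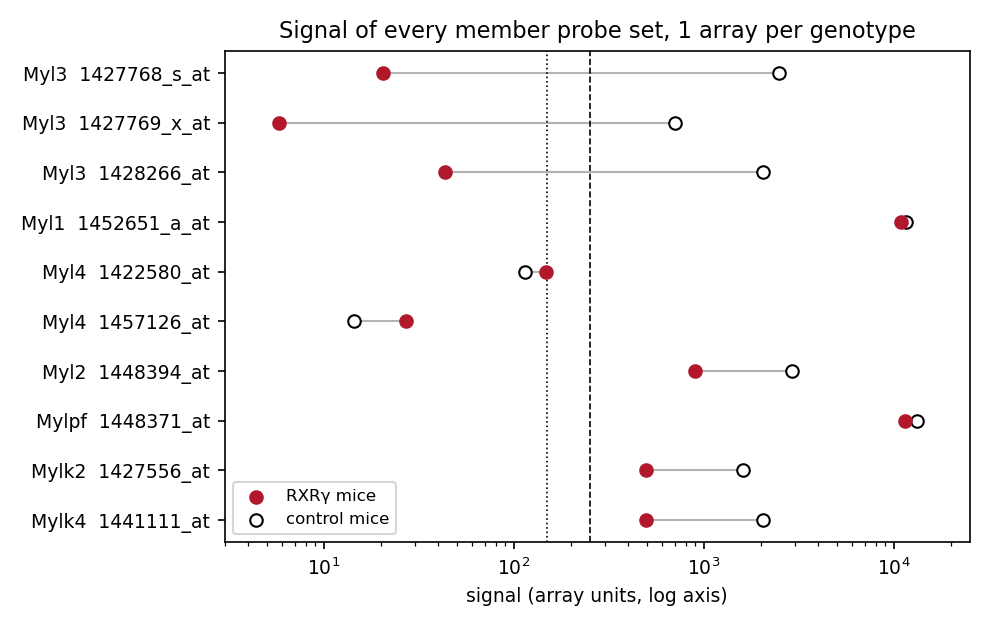
Signal of each of the 10 probe sets in RXRγ mice (filled circles) and control mice (open circles), plotted in array units along a log axis, with 1 array for each genotype. Vertical lines stand at signals of 150 (dotted) and 250 (dashed); in RXRγ mice the 3 probe sets of Myl3 lie between 5.8 and 43.3, while those of Myl1 and Mylpf are 10916.4 and 11417.8.

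Myl3, the essential light chain of slow fibres, read 20.5 in RXRγ mice and 2483.7 in control mice at probe set 1427768_s_at. At 1427769_x_at its signal was 5.8 in RXRγ mice and 702.9 in control mice. The remaining probe set, 1428266_at, read 43.3 in RXRγ mice and 2053.2 in control mice. All 3 probe sets were therefore far under 150 in RXRγ mice and well above 250 in control mice. Their differences are bounds: with the lower signal set to 150, Myl3 was at least 16.6-fold lower at 1427768_s_at, at least 4.69-fold at 1427769_x_at and at least 13.7-fold at 1428266_at. Averaged over them, the log2 ratio with signals under 150 set to 150 was -3.35, so that the gene was at least 10.2-fold lower. The first pair of probe sets is annotated to the same transcript sequence, so they are not separate measurements, whereas 1428266_at is annotated to another sequence of the gene. As the suffix _x_at marks oligonucleotides that can also bind other transcripts, and _s_at those shared between transcripts, the probe set 1428266_at carries the result without either.

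Myl2, the regulatory light chain of slow fibres, read 893.0 in RXRγ mice and 2909.5 in control mice. Unlike Myl3, it stayed above 250 on both arrays, at 30.7% of the control signal (3.26-fold lower, log2 ratio -1.70). It has 1 probe set, whose name carries no suffix for shared oligonucleotides. Myl2 and Myl3 thus both fell below their control signal, and with signals under 150 set to 150 the log2 ratio of Myl3 lay at least 1.65 below that of Myl2. The probe sets of Myl3 differ in this: the bound at 1427769_x_at, the dimmest of them in control mice, is -2.23, set beside -1.70 for Myl2. Without the floor, the log2 ratios of the Myl3 probe sets spanned 1.35. For scale, the log2 ratios of different probe sets of the same gene spanned a median of 0.20 over the 1213 genes with several, with a 90th percentile of 0.54. Since the arrays measure bulk RNA, fewer slow fibres and less of these transcripts per fibre cannot be told apart.

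Myl1, the essential light chain of fast fibres, gave 10916.4 in RXRγ mice and 11569.3 in control mice, a log2 ratio of -0.08. Its probe set, 1452651_a_at, is of the kind whose oligonucleotides match several transcripts of the same gene. Myl1 makes a long and a short light chain from separate starts, and RefSeq lists 2 curated transcripts for it, so a shift between them was not measured here. Mylpf, the regulatory light chain of fast fibres, gave 11417.8 in RXRγ mice and 13208.5 in control mice. That is 86.4% of the control signal, a log2 ratio of -0.21. Both probe sets belong to the 195 with a signal above 5000, of which 11.8% were lower and 7.69% higher by 0.4. The log2 ratios of these 195 had a median of -0.10 and quartiles of -0.19 and 0.11, so that Myl1 lay between the quartiles and Mylpf just under the lower one. With quantile normalization the log2 ratio of Myl1 was 0.04 and that of Mylpf -0.04, and with an intensity-dependent centring they were 0.01 and -0.12. The sign of the small difference in Myl1 therefore depends on the scaling, while Mylpf kept a value under 0.

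Within each class of light chain, the slow gene was thus lower relative to its fast counterpart. The log2 ratio of Myl3, with signals under 150 set to 150, was below that of Myl1 by at least 3.27. For the regulatory chains, the log2 ratio of Myl2 was below that of Mylpf by 1.49. These are differences of ratios within probe sets, because signals of different probe sets cannot be set against each other.

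Myl4, the embryonic and atrial essential light chain, did not reach a signal of 250. Its signal was 148.1 in RXRγ mice and 114.4 in control mice at probe set 1422580_at. At 1457126_at it was 27.0 in RXRγ mice and 14.4 in control mice. All 4 values lie under 150, and no fold is given. The perinatal myosin heavy chain gene Myh8, of the same developmental programme, read 9704.6 in RXRγ mice and 53.8 in control mice. Of 7 genes listed for embryonic and regenerating fibres, Myl4 included, only Myh8 and the cardiac α-actin gene Actc1 were measured. Myh8 was at least 64.7-fold higher and Actc1 had a log2 ratio of 0.53, whereas Myh3, the embryonic myosin heavy chain, read 112.3 in RXRγ mice and 42.7 in control mice.

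The kinase genes were both lower. Mylk2, the calmodulin-dependent light chain kinase of skeletal muscle, read 492.6 in RXRγ mice and 1610.8 in control mice. This is 30.6% of the control signal (3.27-fold lower, log2 ratio -1.71). Mylk4, a further kinase of the family that is found in striated muscle, read 496.4 in RXRγ mice and 2048.3 in control mice. Mylk4 was thus at 24.2% of the control signal (4.13-fold lower, log2 ratio -2.04). Both stayed above 250 on both arrays, and each has 1 probe set. The log2 ratios of Mylk2 and Mylk4 were 0.34 apart, which is more than the median span between probe sets of a gene and less than its 90th percentile. Of the 1301 probe sets with a brighter signal of 1000 to 5000, 5.07% were lower by 1 or more on the log2 scale. This range holds Myl2, Mylk2, Mylk4 and 2 of the 3 probe sets of Myl3. The family was chosen by these ratios and the range was set after they were seen, so nothing is read from this share.

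**Figure D2:**
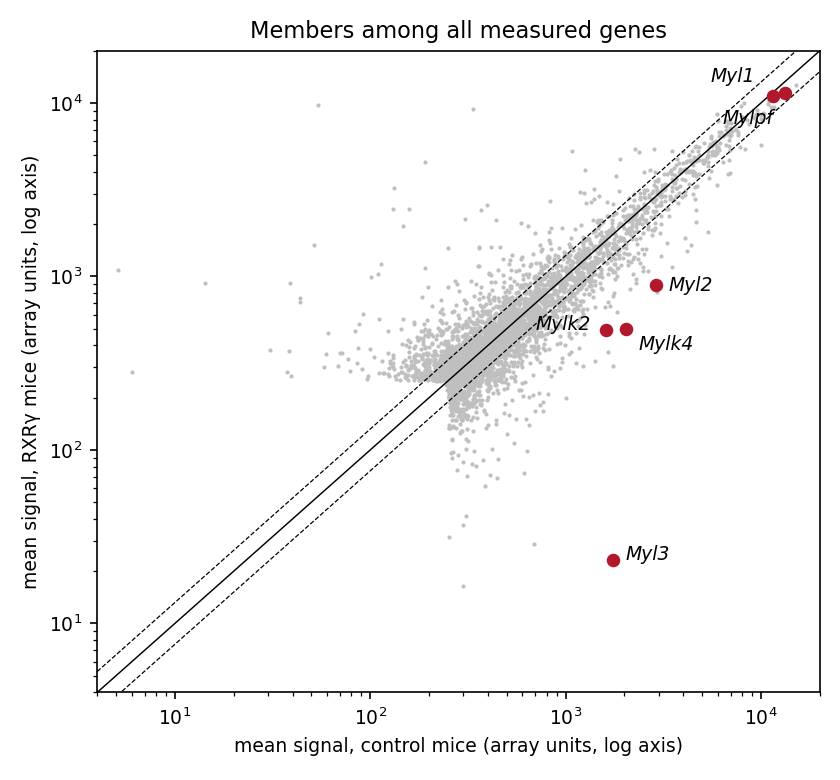
Mean signal of each measured gene in RXRγ mice (vertical) against control mice (horizontal), with log axes and array units throughout, each gene 1 grey point and the 6 measured genes of the family in red. The solid line marks equal signals and the dashed lines a log2 ratio of 0.4 in either direction; Myl1 and Mylpf lie between the dashed lines, Myl2, Mylk2 and Mylk4 below them, and Myl3 far below at 23.2 in RXRγ mice.

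In the order of gene values with signals under 150 set to 150, Myl3 was lowest of the 3780 measured genes, Mylk4 took place 9, Mylk2 place 24 and Myl2 place 25 from the lowest. Myl1 and Mylpf were at places 1744 and 1271. The family was chosen by log2 ratios on these same arrays, so nothing is read from these places. The order rests on 1 array per genotype, and neighbours in it, such as Mylk2 and Myl2, whose values differ by 0.01, are not separated by it. The genes with the nearest values were Myh7 and Aldh1a1 for Myl3, at distances of 0.82 and 1.02 on the log2 scale. Myh7, the slow myosin heavy chain, read 303.2 in RXRγ mice and 1754.4 in control mice, and Aldh1a1, a retinaldehyde dehydrogenase, 198.9 in RXRγ mice and 1003.4 in control mice. Nearest to Mylk4 were Ky, a protein of the muscle sarcomere (168.2 in RXRγ mice and 695.7 in control mice), and Slc37a4, the glucose-6-phosphate transporter (181.9 in RXRγ mice and 742.0 in control mice). Cacnb1, the β subunit of the muscle calcium channel, was next to Mylk2 and Myl2 and read 207.6 in RXRγ mice and 680.1 in control mice. The likeness is the difference of 1 value per gene over 2 arrays and holds no more than that.

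The sequence before the RefSeq start was read for the family, since 4 of its genes were lower together. The set of RefSeq promoters used here, in build GRCm38.p6, covered 6 of the 7 genes, and Mylk2 was not among them. The 250 bases before each start were searched on both strands for CANNTG (the E-box, which is bound by myogenic factors such as MyoD), for the binding site of MEF2 and for AGGTCA, the core motif read by RXR and its partners. Of all 32851 promoters in the table, 66.2% held CANNTG, 2.9% the MEF2 site and 14.0% AGGTCA. The promoters of the lower genes with a sequence are shown with their matches in capitals, together with that of the fast chain Mylpf for comparison.
Myl3: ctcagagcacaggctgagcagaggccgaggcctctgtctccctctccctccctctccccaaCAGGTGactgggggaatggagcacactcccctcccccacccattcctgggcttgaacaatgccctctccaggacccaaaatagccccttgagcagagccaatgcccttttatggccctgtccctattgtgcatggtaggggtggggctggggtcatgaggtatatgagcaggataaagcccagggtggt
Myl2, upstream start: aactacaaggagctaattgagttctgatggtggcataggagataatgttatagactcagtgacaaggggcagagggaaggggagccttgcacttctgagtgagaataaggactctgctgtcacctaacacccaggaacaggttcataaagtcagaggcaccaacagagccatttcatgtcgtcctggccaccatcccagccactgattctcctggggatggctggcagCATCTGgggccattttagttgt
Myl2, downstream start: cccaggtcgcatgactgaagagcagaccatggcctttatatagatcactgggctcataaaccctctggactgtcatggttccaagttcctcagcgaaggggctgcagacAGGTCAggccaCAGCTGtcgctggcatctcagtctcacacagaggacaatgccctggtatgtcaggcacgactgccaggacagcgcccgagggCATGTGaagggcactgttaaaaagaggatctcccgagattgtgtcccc
Mylk4: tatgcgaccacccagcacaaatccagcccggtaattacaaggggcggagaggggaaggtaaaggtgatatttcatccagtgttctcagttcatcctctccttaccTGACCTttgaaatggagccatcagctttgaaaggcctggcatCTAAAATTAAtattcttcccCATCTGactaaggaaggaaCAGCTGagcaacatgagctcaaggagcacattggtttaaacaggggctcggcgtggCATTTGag
Mylpf: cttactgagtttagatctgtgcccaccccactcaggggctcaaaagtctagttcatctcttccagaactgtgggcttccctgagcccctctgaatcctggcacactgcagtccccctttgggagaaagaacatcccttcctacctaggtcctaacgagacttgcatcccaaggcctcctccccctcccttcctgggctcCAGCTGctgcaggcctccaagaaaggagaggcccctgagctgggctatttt
Each runs 5′ to 3′ toward the start, from chr9:110763428-110763677 (+) for Myl3, chr5:122092474-122092723 (+) and chr5:122092939-122093188 (+) for Myl2, chr13:32783965-32784214 (-) for Mylk4 and chr7:127211358-127211607 (+) for Mylpf.

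Mylk4 held all the motifs searched. It has 3 matches to CANNTG, the MEF2 site at 103 to 94 bases before the start, and AGGTCA on the opposite strand, which reads TGACCT in the printed sequence, at 145 to 140 bases before the start. Myl2 held AGGTCA at 141 to 136 bases before its downstream start, beside 2 matches to CANNTG, and its upstream start has 1 match to CANNTG. In Myl3, which differed most between the genotypes, the only match is 1 CANNTG at 189 to 184 bases before the start. Mylpf has 1 CANNTG at 51 to 46 bases, and Myl1 has 1 at 224 to 219 bases before the start. The window of Myl4 held no match. These are matches of letters in a window of fixed length and were not tested as binding sites.

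Of 7 light chain genes outside the family, 3 were measured, with a median log2 ratio of 0.14. None of these 3 reached 0.4 in either direction on the deposited signals. Myl12a, a regulatory chain of non-muscle myosin, read 2941.1 in RXRγ mice and 2667.4 in control mice. The near copy Myl12b had 447.4 in RXRγ mice and 345.0 in control mice, a log2 ratio of 0.38 that passed 0.4 under median scaling and intensity-dependent centring. Myl9, the regulatory chain of smooth muscle, had 336.9 in RXRγ mice and 374.0 in control mice. Among the other kinases that act on regulatory light chains, 1 of 8 was measured, Rock1, which read 286.1 in RXRγ mice and 232.2 in control mice. Mylk, the kinase of smooth muscle, reached 154.3 in RXRγ mice and 169.6 in control mice at its brightest probe set. Mylk3, the cardiac kinase, read 13.6 in RXRγ mice and 12.5 in control mice. Dapk1, Dapk2, Dapk3 and Stk17b were likewise not measured, and Rock2 was not analysed here.

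The phosphatase that acts against the kinases went both ways. Of 9 genes of its subunits and inhibitors, 7 were measured, 3 of them higher and 1 lower, with a median log2 ratio of -0.08. Over all measured genes 16.8% were higher and 20.1% lower. Without a signal filter 1 gene of the phosphatase was higher and 1 lower, so nothing is read from these counts. Of its 3 myosin-binding subunits, 2 were higher. Ppp1r12b, the form of striated muscle, read 906.8 in RXRγ mice and 621.0 in control mice, and Ppp1r12a had 312.8 in RXRγ mice and 219.4 in control mice. Ppp1r12c was not measured, its brightest probe set reading 61.4 in RXRγ mice and 37.5 in control mice. Of its inhibitors, Ppp1r14b had 942.0 in RXRγ mice and 541.6 in control mice, a log2 ratio of 0.80. Ppp1r14c went the other way and was 3.03-fold lower, reading 389.3 in RXRγ mice and 1177.8 in control mice. The catalytic subunit Ppp1cb had a gene value of -0.08, and its 4 probe sets ran between -0.74 and 0.29. The value of -0.74 came from the dimmest of these, which read 169.6 in RXRγ mice and 283.9 in control mice. The brightest had a log2 ratio of 0.06. Pvalb, which buffers calcium in fast fibres, read 9437.8 in RXRγ mice and 11291.2 in control mice (log2 ratio -0.26). Calmodulin, the activator of Mylk2, was not analysed here.

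The light chains were set beside other sarcomere genes of the same fibre types. Of 9 genes of slow fibres outside the family, 8 were measured, 6 were lower and 1 was higher in RXRγ mice, with a median log2 ratio of -1.13. Over all measured genes 20.1% were lower and 16.8% higher. Besides Myh7, the slow troponin T gene Tnnt1 had a log2 ratio of -2.02 and the slow troponin I gene Tnni1 one of -1.57. Of the other lower genes, 2 differed between their probe sets. Tpm3 (-0.70) ran from -1.14 to 0.06 over 3 probe sets, and Atp2a2 (-0.72) from -0.97 to -0.35 over 3. In RXRγ mice Tnnt1 read 188.9 and Tnni1 163.6, both close to 150. The exceptions were Casq2, the calcium-binding protein of the slow and cardiac reticulum, at 454.2 in RXRγ mice and 276.7 in control mice, and Myoz2, with a log2 ratio of 0.04. Of 12 genes of fast fibres, all were measured, 3 were lower and none was higher, and the median was -0.22. This count of lower genes is near the share of 20.1% over all genes, and nothing is read from it. The lower fast genes were Myh2 (log2 ratio -0.81), Casq1 (-0.49) and Myh4 (-0.42, with -0.77 and -0.06 at its probe sets). Under the other scalings 2 fast genes were lower, and the median of the list was between -0.19 and -0.09. Myl2 and Myl3 thus moved in the same direction as most of the slow list, and Myl1 and Mylpf lay within the range of the fast list. These lists were chosen with results of the same arrays known and are not independent evidence.

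**Figure D3:**
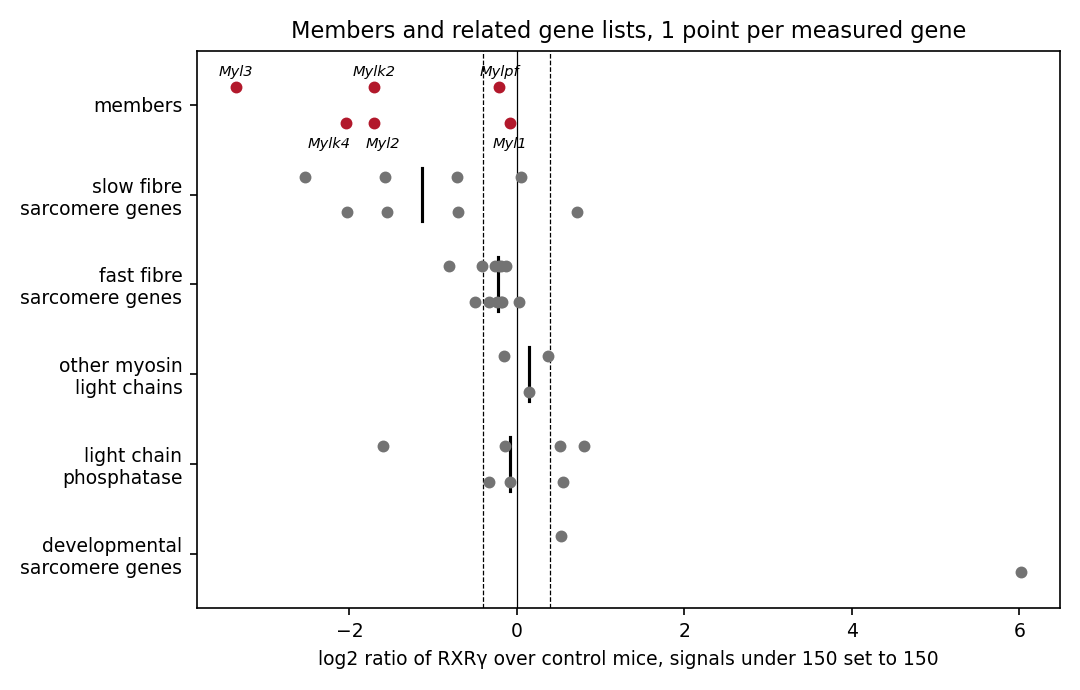
log2 ratio of RXRγ over control mice with signals under 150 set to 150, for the measured genes of the family (red, named) and of 5 related lists (grey), each gene 1 point, with a vertical offset that has no meaning. Black bars are medians of lists with more than 2 measured genes, and dashed lines stand at a ratio of 0.4 up or down; the slow fibre list (median -1.13) lies further to the left than the fast fibre list (median -0.22), and Myl3 is the lowest point at -3.35.

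Markers of other tissues were examined because Myl2, Myl3 and Myl4 are also genes of the heart. Of 9 cardiac markers, 8 have a probe set, none was measured, and their summed signal was 473.8 in RXRγ mice and 214.3 in control mice. At its brightest probe set Myh6, a cardiac myosin heavy chain, read 25.0 in RXRγ mice and 16.0 in control mice. The cardiac troponin gene Tnni3 read 7.4 in RXRγ mice and 1.8 in control mice. None of these markers was at 0. The highest signal among them was at a probe set of Pln, which read 129.6 in RXRγ mice and 13.3 in control mice. Pln encodes phospholamban, which slow skeletal fibres also express. All 8 were thus under 150 on both arrays. The 6 smooth muscle markers summed to 1124.5 in RXRγ mice and 1343.6 in control mice. Of 15 markers of vessel, fat, macrophage, fibroblast and nerve cells, 6 were measured and none differed by 0.4. Over all probe sets of this list, measured or not, the signals summed to 7727.9 in RXRγ mice and 7121.1 in control mice. The part of these other tissues and cells in the values of the light chains and kinases was not tested.

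The values of the 4 lower genes were compared under 12 other settings. Myl2 lay between -1.70 and -1.65 on the log2 scale, Mylk2 between -1.71 and -1.65, and Mylk4 between -2.04 and -1.98. Each was lower in all 12, but most of these settings could not change the values of Myl2, Mylk2 and Mylk4. The only probe set of each passed every filter, lay above the floors on both arrays and carries no suffix for shared oligonucleotides. Filters, floors and choices of probe sets therefore returned the same value, and only the other scalings and the pseudocount could move it. Myl3 was lower in each of the 11 settings that gave it a value, between -6.92 and -3.35, a range that reflects how signals under 150 were treated and which probe sets were averaged. When a signal above 250 was required on both arrays, Myl3 gave no value.

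**Figure D4:**
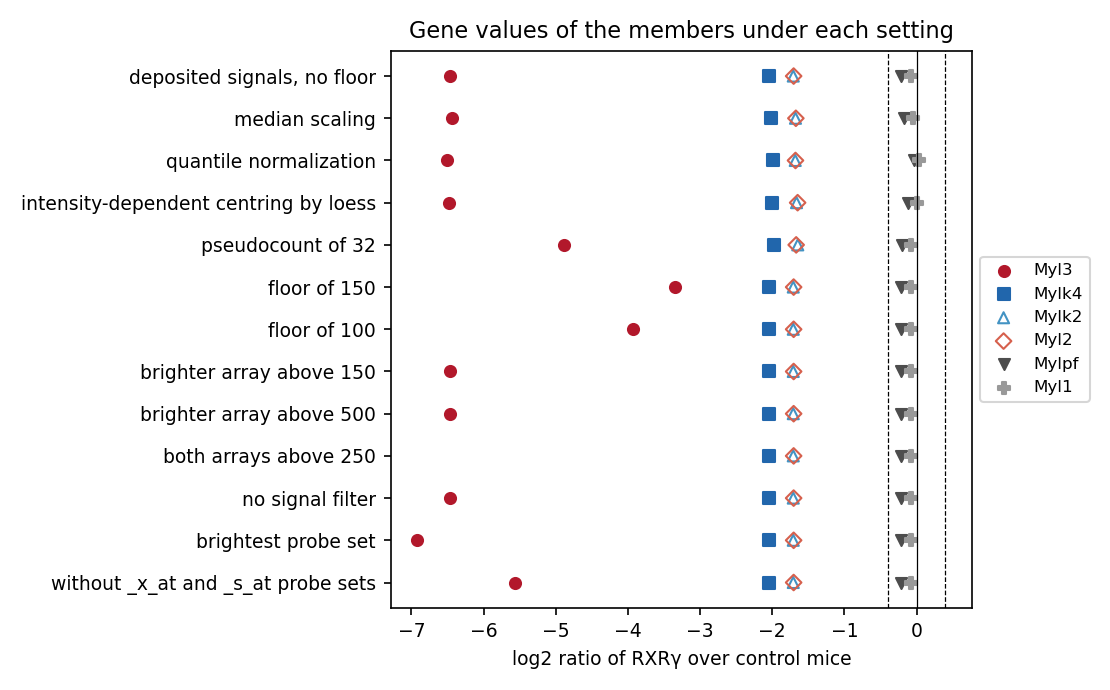
Gene value (log2 ratio of RXRγ over control mice, horizontal) of each of the 6 measured genes under the deposited signals and 12 other settings, 1 row per setting and 1 symbol per gene. Dashed lines stand at a ratio of 0.4 up or down; Myl3 moves between -6.92 and -3.35, while Mylk4, Mylk2 and Myl2 stay between -2.04 and -1.65 and Mylpf and Myl1 between -0.21 and 0.04.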

How the data were processed

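Total RNA of skeletal muscle was pooled within each genotype, labelled with biotin and hybridized in 1 colour to 1 Affymetrix MG430 array per genotype. The deposited intensity values are probe set signals on a linear scale, made by the authors with Affymetrix software that compares perfectly matched with mismatched oligonucleotides. The methods call the measure an average difference, a quantity that can be negative, and no deposited value is below 0. How the lowest values were handled is not stated there. The authors' scaling was kept. Probe sets were named by the platform annotation, which gives 1 gene for 34958, several for 932 and none for 9211. Only the first kind was used for gene values. Present and absent calls were not used here.

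From the signals, log2 ratios of RXRγ over control mice were computed without a pseudocount. A gene whose probe sets passed 0.4 in both directions counted as neither. With 1 array per genotype no p-value was computed. The members and gene lists were chosen with earlier results of these data known. Every member is named, together with the genes of the phosphatase, kinase and light chain lists past 0.4, up to 3 genes per direction of the fibre type and developmental lists, and for each called member the 2 genes with the nearest value. Genes named beyond these were chosen after their values were seen, and so were the classes of brightness. Promoter sequences are from RefSeq (GRCm38.p6). A comparison of the light chain proteins was planned and not made here. The code of the calling steps was checked on simulated data with known changes, which does not measure the error of calls from 1 array per genotype. Alternatives were median scaling, quantile normalization, loess centring with a span of 0.3 (limma 3.58.1, R 4.3.3), a pseudocount of 32, floors of 150 and 100, other signal filters, other choices of probe sets and a threshold of 1. A change of a ratio by a factor of 1.5 or more counted as a move. Other steps used Python 3.11.15, pandas 2.3.3, numpy 2.4.6 and matplotlib 3.10.9.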

Additional observations from a re-analysis of the deposited data

How the results depend on the processing

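No setting changed the direction of a member past the threshold. For Myl2, Mylk2 and Mylk4 only the other scalings and the pseudocount could move the value. The gene value of Myl3 was -6.47 without a floor, -4.89 with a pseudocount of 32, -3.94 with a floor of 100, -3.35 with a floor of 150 and -5.57 from the probe set without the suffixes _x_at and _s_at. Without a signal filter 1 member, Myl4, was higher, on signals under 150. The number of members lower was 4 in each setting except a signal above 250 on both arrays, where it was 3 of 5. Counts over all genes depend on the filter and, in their balance, on the scaling. Of all measured genes, 636 were higher and 760 lower as reported, 982 and 1028 with a brighter signal above 150, 340 and 438 above 500, 371 and 501 with both arrays above 250, 5208 and 4114 without a filter, and 191 and 155 at a threshold of 1. Median scaling gave 711 higher and 704 lower, and loess centring 702 and 701. No paired analysis was possible because each genotype has 1 array. Of the members measured, 5 rest on 1 probe set each, and the array signal does not show counting depth.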

Other observations

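Myl6, the essential light chain of smooth muscle and non-muscle myosin, shares 2 of its probe sets with the gene models Gm8894 and Gm5526 and was left out of the gene values there. At 1424269_a_at the signal was 998.9 in RXRγ mice and 765.5 in control mice, a log2 ratio of 0.38, and at 1434396_a_at it was 1638.9 in RXRγ mice and 1580.0 in control mice, a log2 ratio of 0.05. The probe set named for Myl6 alone read 201.8 in RXRγ mice and 148.1 in control mice, under the filter of 250. Other light chains were dim on both arrays: Myl10 read 67.8 in RXRγ mice and 81.1 in control mice, the atrial chain Myl7 2.7 in RXRγ mice and 7.5 in control mice, and Myl6b 9.1 in RXRγ mice and 2.8 in control mice.

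Of the 8 skeletal muscle markers, 2 were lower. Over all measured genes 20.1% were lower, so nothing is read from this count. The lower markers were Ckm and Ttn. Ckm, the muscle creatine kinase, had log2 ratios of -1.39 and -0.11 at its 2 probe sets. Ttn, the giant sarcomere protein titin, had 5 probe sets between -1.23 and -0.12.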
